A study of Homo sapiens with 8 samples.

Results

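The unfolded protein response (UPR) and chaperone genes of the endoplasmic reticulum (ER) described here are 10 genes: HSPA5, HSP90B1, CALR, PDIA4, ERN1, ATF4, DDIT3, DNAJB9, HERPUD1 and SEL1L. They were chosen by name, and their H3K4me3 was read as the bases called within 5 kb on each side of 1 transcription start site per gene on GRCh37. Trimethylation of histone H3 at lysine 4 (H3K4me3) is found mainly at active promoters. It was mapped by chromatin immunoprecipitation sequencing (ChIP-seq) in the human multiple myeloma cell line MM1S, an established line. Treated cells received KDM5-C70 at 50 uM for 7 days (3 libraries), and control cells received the vehicle DMSO, with no time stated (5 libraries). KDM5-C70 inhibits the KDM5 enzymes, which remove methyl groups from this lysine. All 8 libraries are of that 1 cell line and 1 antibody, and the labels do not say whether replicates were separate cultures, so the spread between them may be technical. The 10 windows held 13 of the 50523 merged regions of the series, and 12 of those 13 were called in all 8 libraries. Merged regions are the joined calls of all lists, and 13729 of them were called in every library. A 10 kb window around the middle of each of these 13729 gives the background used below. The 12 regions at the genes that were called in all 8 libraries are among the 13729. Called and inner bases chose how these genes were read, and earlier results of the same data were known when they were chosen. All their values are therefore given as a description, without a test of the genes themselves.

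Proteins entering the ER are folded by chaperones, and unfolded proteins that pile up there set off the UPR through sensors in the ER membrane. The sensors raise the output of chaperones and of the machinery that removes misfolded proteins, and they slow the synthesis of other proteins. Myeloma cells are malignant plasma cells that secrete large amounts of immunoglobulin, and this pathway is known for the load it carries in them. The factors ATF6 and XBP1 act on chaperone promoters through the ER stress response element (ERSE), a CCAAT box followed, after a spacer of 9 bases, by CCACG.

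The promoter sequences below are shown because the chaperone genes that hold the ERSE include the gene whose called regions differed most between the groups, HSP90B1, and also one whose start site was called in all 8 libraries, HSPA5. All 10 genes were matched in RefSeq's promoter table for GRCh38.p14. Each line is the 250 bases before the start site on the gene's strand, 5′ to 3′, with capitals for ERSE in either orientation or, in HERPUD1, for ERSE-II (ATTGG, 1 base, CCACG). The regions of GRCh38.p14 are chr9:125241344-125241593 on the minus strand for HSPA5, chr12:103930160-103930409 on the plus strand for HSP90B1, chr19:12938359-12938608 on the plus strand for CALR and chr16:56931892-56932141 on the plus strand for HERPUD1. Their start sites were not aligned with the GRCh37 positions of the windows.
HSPA5: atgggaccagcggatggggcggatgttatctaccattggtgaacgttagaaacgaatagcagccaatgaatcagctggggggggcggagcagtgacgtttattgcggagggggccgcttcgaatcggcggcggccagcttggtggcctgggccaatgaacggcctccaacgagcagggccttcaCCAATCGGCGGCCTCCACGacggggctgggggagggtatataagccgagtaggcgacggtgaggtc
HSP90B1: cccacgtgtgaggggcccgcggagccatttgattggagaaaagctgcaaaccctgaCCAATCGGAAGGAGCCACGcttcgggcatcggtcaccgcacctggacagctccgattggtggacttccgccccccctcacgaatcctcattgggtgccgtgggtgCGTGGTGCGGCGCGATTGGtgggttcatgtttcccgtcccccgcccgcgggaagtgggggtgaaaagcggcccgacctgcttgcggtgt
CALR: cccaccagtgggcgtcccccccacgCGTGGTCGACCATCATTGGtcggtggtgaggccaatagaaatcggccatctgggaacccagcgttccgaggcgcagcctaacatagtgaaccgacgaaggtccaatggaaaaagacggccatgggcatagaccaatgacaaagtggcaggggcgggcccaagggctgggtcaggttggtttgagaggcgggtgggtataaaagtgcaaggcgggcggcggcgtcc
HERPUD1: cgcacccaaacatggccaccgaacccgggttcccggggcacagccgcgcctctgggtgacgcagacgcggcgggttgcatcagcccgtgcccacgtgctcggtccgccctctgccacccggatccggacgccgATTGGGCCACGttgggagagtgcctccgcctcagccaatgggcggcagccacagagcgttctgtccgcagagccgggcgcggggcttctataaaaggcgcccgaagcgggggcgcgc
ERSE was found in 3 of the 10 genes, HSPA5, HSP90B1 and CALR, searched on both strands, against 22 of 27305 promoters of the same length (0.0806%). HSP90B1 held it in both orientations, from 194 to 176 and from 89 to 71 bases before the start, HSPA5 once, from 66 to 48 bases before it, and CALR once in the opposite orientation, from 225 to 207 bases before it. ERSE-II was found in HERPUD1 alone of the 10, from 117 to 107 bases before its start, and in 14 of all promoters (0.0513%). The core TGACGTG, part of the UPR element that XBP1 binds, was in none of the 10 promoters and in 1.71% of all. CCAAT alone was in 9 of the 10, all but ATF4, and in 33.0% of all promoters. CCACG alone, which ERSE and ERSE-II contain, was in 8 of the 10, all but DDIT3 and ERN1, and in 33.3% of all. Counting every copy, 5 of the 10 genes had at least 3 CCAAT boxes, against 3.09% of all promoters. The GC content of the 10 upstream stretches ranged between 58.4 and 75.2% with a median of 64.2%, and the median of all promoters was 58.0%. The genes were chosen by name as chaperone and UPR genes, and these elements are known from the promoters of such genes. The shares beside all promoters are therefore no test of enrichment. A match of letters is a description and shows no binding.

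The 8 lists held 17977 to 37948 regions with KDM5-C70 and 15323 to 32376 with DMSO. Clustered by the overlap of called bases, with the number of sets fixed at 2, they formed sets that cross the groups. KDM5-C70 1, DMSO 1 and DMSO 2, with 15323 to 20998 regions, shared 0.666 to 0.677 of their joint called bases pair by pair. KDM5-C70 2 and 3 with DMSO 3, 4 and 5, with 28195 to 37948 regions, shared 0.560 to 0.734. Between the sets the share was 0.309 to 0.543. The set of 3 holds the shortest lists, and an overlap share also depends on list length. These sets of 3 and of 5 libraries were recognised only from the data, and differences within them are given beside the pooled ones. Depth is unknown, since no read totals were at hand, and bases outside a list may still carry the mark.

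The 10 genes were all called within 5 kb of the start site in all 8 libraries, and 9 of them were when each list was limited to its 15323 widest regions. Averaged over the 8, DNAJB9 had the most called bases, 2263 ± 809 bp (SD, n = 8), and SEL1L the fewest, 971 ± 487 bp (SD, n = 8). The other 8 genes had means between 1710 bp (CALR) and 2052 bp (HSPA5), in the order HSPA5, ATF4, PDIA4, HERPUD1, ERN1, HSP90B1, DDIT3 and CALR, and no neighbours in that order differed by as much as their SD over libraries. SEL1L lay below CALR by more than its own SD. Among the 13729 windows DNAJB9 stood at the 94.5th percentile and SEL1L at the 22.7th. Summed over the 10 genes, called bases were 12918, 20680 and 18125 bp in KDM5-C70 libraries 1 to 3 and 15631, 11833, 23239, 20835 and 21211 bp in DMSO libraries 1 to 5. The means were 17241 ± 3956 bp with KDM5-C70 (SD, n = 3) and 18550 ± 4688 bp with DMSO (SD, n = 5), a difference of -1309 bp, and the groups overlapped. Within the set of 3 the difference was -814 bp, with KDM5-C70 1 between the DMSO libraries, and within the set of 5 it was -2359 bp, with both KDM5-C70 sums below the 3 DMSO sums. Without KDM5-C70 1 the pooled difference was 853 bp. The low sums in both groups belong to the set of 3 libraries.

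**Figure D1:**
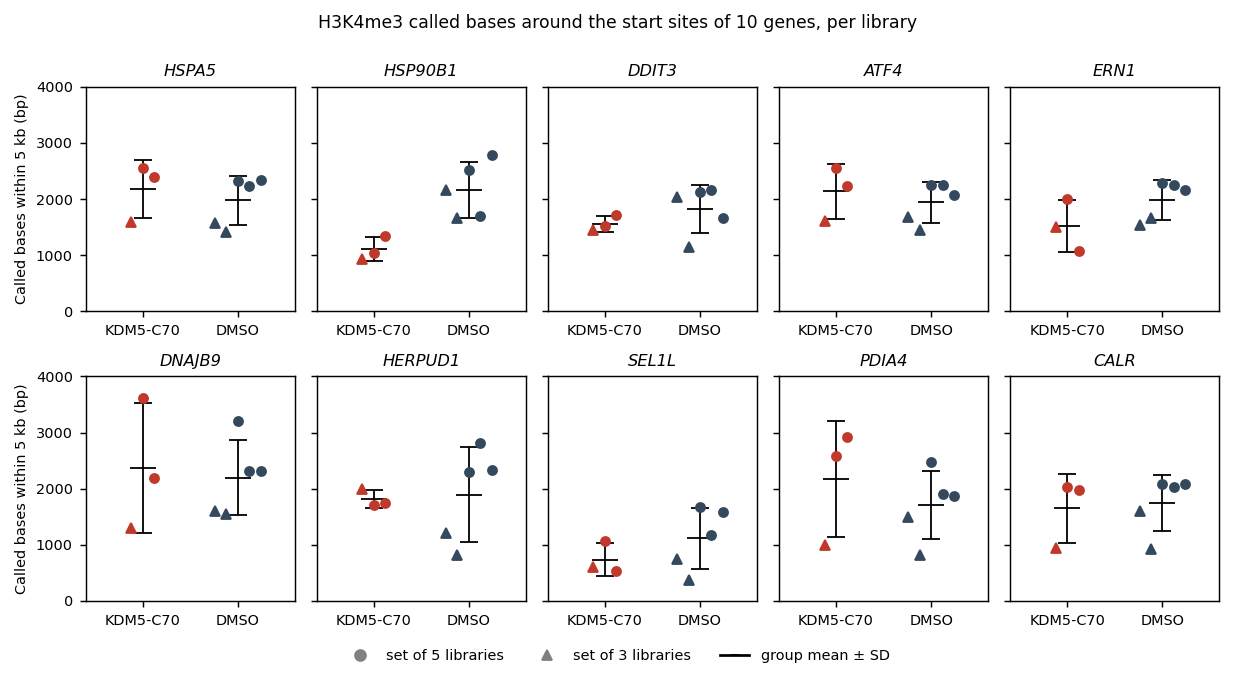
Called bases (bp, vertical axis) within 5 kb of the start site of each of the 10 genes, 1 panel per gene, with 3 KDM5-C70 libraries left of 5 DMSO libraries; circles are the set of 5 libraries, triangles the set of 3, and black marks the mean ± SD. HSP90B1 is the 1 gene whose groups do not overlap, at 928 to 1340 bp with KDM5-C70 and 1657 to 2779 bp with DMSO.

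HSP90B1 encodes GRP94, the HSP90 of the ER, which folds a narrow set of secreted and membrane proteins. Its start site is at position 104324112 of chromosome 12 on the plus strand. Called bases there were 928, 1036 and 1340 bp in KDM5-C70 libraries 1 to 3, against 2158, 1657, 2522, 1700 and 2779 bp in DMSO libraries 1 to 5. Every KDM5-C70 library lay below every DMSO library. Means were 1101 ± 214 bp with KDM5-C70 (SD, n = 3) and 2163 ± 495 bp with DMSO (SD, n = 5), a difference of -1062 bp, or -0.96 ± 0.23 on the log2 scale (SE). Groups that did not overlap in this direction were seen at 1 of the 10 genes and in 63 of the 13729 windows (0.459%). In the other direction the counts were 0 of the 10 genes and 123 windows (0.896%). Earlier results of this contrast were known when the genes were taken up, so nothing is read from either count. Without KDM5-C70 1 the 10 genes held 3 with groups that did not overlap: HSP90B1 was lower, as were 0.94% of windows, and HSPA5 and PDIA4 were higher, as were 39.7% of windows. Without KDM5-C70 2 they held 2, HSP90B1 and ERN1, both lower, as were 1.49% of windows, while 0 genes and 1.12% of windows were higher. Within the set of 3 libraries the difference was -979.5 bp, and within the set of 5 it was -1146 bp.

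The difference at HSP90B1 lay mostly before its start site. Called bases upstream were 0, 0 and 351 bp in KDM5-C70 libraries 1 to 3, against 858, 832, 1032, 369 and 1125 bp in DMSO libraries 1 to 5. The 351 bp of KDM5-C70 3 were a separate region from position -2338 to -1988 relative to the start, without an inner segment, and that region is the 1 of the 13 merged regions called in a single library. Calls at the promoter itself began 161, 117 and 169 bp after the start with KDM5-C70, while in DMSO libraries 1, 2, 3 and 5 a single region ran across the start from 858, 832, 1032 and 1125 bp before it. In DMSO 4 there were separate pieces, 1062 to 694 bp before the start and 116 to 1446 bp after it. The start base was thus called in 0 of 3 KDM5-C70 libraries and in 4 of 5 DMSO libraries. Downstream called bases were 928, 1036 and 989 bp with KDM5-C70 and 1300, 825, 1490, 1331 and 1654 bp with DMSO, and there the groups overlapped through DMSO 2. Among the 10 genes HSP90B1 ranked 9 by its KDM5-C70 mean and 2 by its DMSO mean. The ERSE copies printed above lie right before the start, on the assumption that the start sites of the 2 builds match, which was not checked. On that assumption, called regions covered these copies in 4 DMSO libraries and in no KDM5-C70 library. No inner segment covered them in any of the 8 libraries. Upstream inner bases were 373 bp in DMSO 3 and 165 bp in DMSO 5, both farther upstream, and 0 in every other library. The groups thus overlapped in upstream inner bases, and whether the mark lies over the ERSE copies was not tested.

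**Figure D2:**
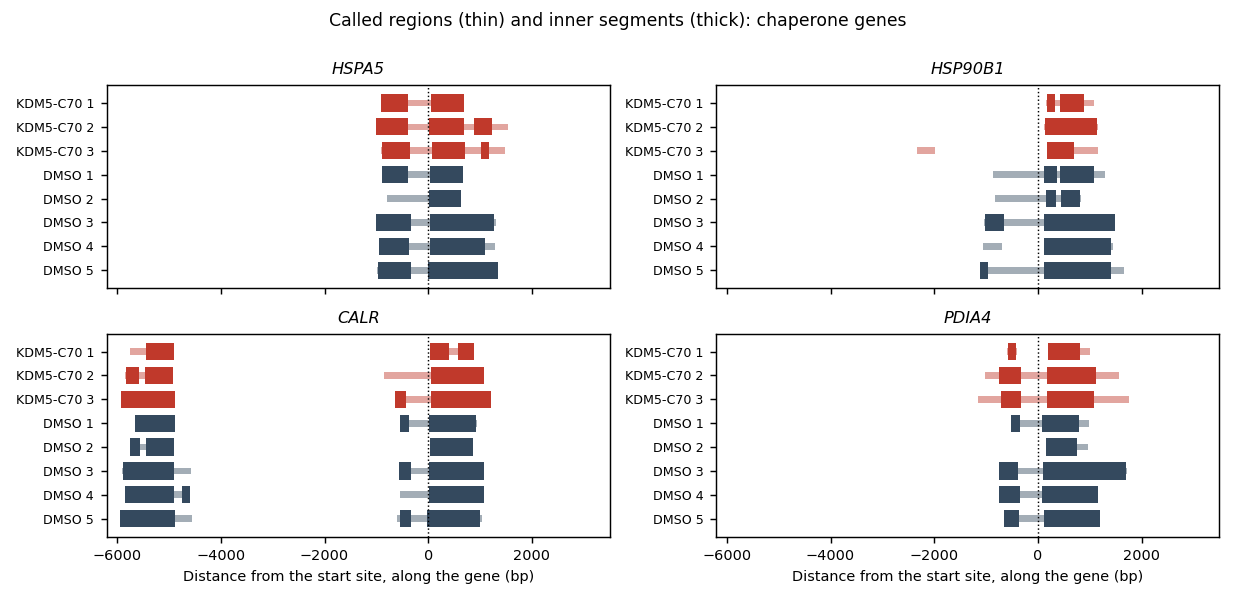
Called regions (light) and inner segments (dark) of HSPA5, HSP90B1, CALR and PDIA4 by distance from the start site (bp, horizontal axis, positive into the gene), 1 line per library with KDM5-C70 above DMSO. At HSP90B1 the KDM5-C70 promoter calls begin 117 to 169 bp after the start, while 4 of 5 DMSO libraries have a region that spans it.

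HSPA5 encodes BiP (GRP78), the main HSP70 chaperone of the ER, which also holds the UPR sensors inactive while it is bound to them. Called bases around its start at position 128003609 of chromosome 9, on the minus strand, were 1589, 2560 and 2396 bp in KDM5-C70 libraries 1 to 3, against 1567, 1421, 2314, 2236 and 2336 bp in DMSO libraries 1 to 5. Pooled, the groups overlapped, at 2182 ± 520 bp with KDM5-C70 (SD, n = 3) and 1975 ± 443 bp with DMSO (SD, n = 5). Within each set, however, the KDM5-C70 values were all above the DMSO values, by 95.0 bp in the set of 3 and by 183 bp in the set of 5. In the set of 3 the nearest pair was 1589 bp in KDM5-C70 1 and 1567 bp in DMSO 1. A single region crossed the start in all 8 libraries, from 790 to 1016 bp before it to 630 to 1543 bp after it, so the extent upstream varied less than the extent downstream. The start base lay outside the inner segments in every library. Inner bases at HSPA5 were 1137, 1661 and 1327 bp with KDM5-C70 and 1138, 616, 1912, 1645 and 1993 bp with DMSO, overlapping pooled. In GRCh38.p14 the start of HSPA5-DT, a divergent transcript, lies 313 bp upstream of HSPA5 on the other strand.

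PDIA4 encodes a protein disulphide isomerase (ERp72), which helps form disulphide bonds in the ER. Its start is at position 148725733 of chromosome 7, on the minus strand. It had 996, 2587 and 2923 called bp in KDM5-C70 libraries 1 to 3 and 1497, 819, 2467, 1905 and 1865 bp in DMSO libraries 1 to 5. The groups overlapped pooled, with a mean difference of 458 bp, at the 92.6th percentile of all windows. Leaving out 1 KDM5-C70 library moved it widely, to 1044 bp without KDM5-C70 1, 248.9 bp without KDM5-C70 2 and 80.9 bp without KDM5-C70 3. Both KDM5-C70 values of the set of 5 lay above its 3 DMSO values, a difference of 676 bp. KDM5-C70 1, however, lay between DMSO 1 and DMSO 2, a difference of -162 bp in that set. CALR encodes calreticulin, a lectin chaperone that binds glycoproteins and calcium, and its start is at position 13049414 of chromosome 19, on the plus strand. Called bases were 945, 2027 and 1971 bp in KDM5-C70 libraries 1 to 3 and 1606, 933, 2085, 2028 and 2086 bp in DMSO libraries 1 to 5. KDM5-C70 1 and DMSO 2 stood apart as the lowest values, the 2 libraries in which the region at the CALR start did not reach upstream of it. CALR was also the 1 gene with a region that crossed the 5 kb limit, in all 8 libraries, and 96 to 97 bp of it counted in those 2 libraries. In GRCh38.p14 the start of FARSA, a tRNA synthetase subunit gene, lies at -4898 bp from that of CALR on the other strand. The next call beyond the limit was 6833 to 7320 bp from the CALR start, and for the other 9 genes it was at least 7676 bp away.

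ERN1 encodes IRE1, the sensor that splices XBP1 mRNA when unfolded proteins pile up. Called bases around its start at position 62207502 of chromosome 17, on the minus strand, were 1496, 2000 and 1067 bp in KDM5-C70 libraries 1 to 3 and 1538, 1659, 2287, 2250 and 2165 bp in DMSO libraries 1 to 5. In both sets the KDM5-C70 values lay below the DMSO values, with differences of -102.5 bp in the set of 3 and -700.5 bp in the set of 5. The pooled groups overlapped because KDM5-C70 2 exceeded DMSO 1 and 2, which are of the other set. The pooled difference of -459 bp stood at the 2.26th percentile of all windows, against the 0.313th for HSP90B1. It was -698 bp without KDM5-C70 2 and -232 bp without KDM5-C70 3. KDM5-C70 3 had no called base before the ERN1 start, while the other 7 libraries had 454 to 764 bp there, and its region began 150 bp after the start. At both ERN1 and HSP90B1, the mean difference upstream and that downstream were negative, at -146 and -313 bp for ERN1 and at -726 and -336 bp for HSP90B1. Upstream of ERN1 the low mean came from KDM5-C70 3. KDM5-C70 1 and 2 had 493 and 764 bp there, against 454 to 650 bp with DMSO. Upstream of HSP90B1 every KDM5-C70 value lay below every DMSO value.

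ATF4 encodes the transcription factor translated when the sensor PERK slows other protein synthesis, and DDIT3 encodes CHOP, a factor downstream of ATF4 linked to cell death under lasting stress. Around the ATF4 start at position 39916569 of chromosome 22, on the plus strand, called bases were 1605, 2561 and 2241 bp in KDM5-C70 libraries 1 to 3 and 1676, 1452, 2256, 2251 and 2071 bp in DMSO libraries 1 to 5. The groups overlapped pooled and in both sets. The 2 KDM5-C70 libraries of the set of 5 reached farthest upstream of ATF4, to 1505 and 1663 bp before the start, against 1122 to 1171 bp for the 3 DMSO libraries of that set. The start base of ATF4 lay in an inner segment in 3 of 8 libraries, which was the most of the 10 genes. Around the DDIT3 start at position 57914300 of chromosome 12, on the minus strand, called bases were 1449, 1516 and 1715 bp in KDM5-C70 libraries 1 to 3 and 2029, 1154, 2124, 2164 and 1663 bp in DMSO libraries 1 to 5. The groups overlapped, through DMSO 2 below and DMSO 5 within the KDM5-C70 range. DDIT3 had separate regions in every library, one after its start and one between positions -3223 and -1958 relative to it. In GRCh38.p14 the start of MBD6 lies at -2310 bp from that of DDIT3 on the other strand. If the starts of the 2 builds match, the upstream piece lies at or next to the MBD6 start. The start of LOC128125814 lies 34 bp after that of DDIT3 on the same strand. The piece upstream held 520, 246 and 379 bp with KDM5-C70 and 1050, 232, 770, 876 and 483 bp with DMSO. The piece after the start held 929, 1270 and 1336 bp with KDM5-C70 and 979, 922, 1354, 1288 and 1180 bp with DMSO, means of 1178 bp with KDM5-C70 and 1145 bp with DMSO. The pooled difference at DDIT3 of -267 bp thus lay in the upstream piece, whose mean difference was -301 bp against 33.7 bp after the start. No library had the DDIT3 start base itself called.

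DNAJB9 encodes ERdj4, a co-chaperone of BiP. Called bases around its start at position 108210191 of chromosome 7, on the plus strand, were 1306, 3612 and 2197 bp in KDM5-C70 libraries 1 to 3 and 1607, 1541, 3203, 2316 and 2321 bp in DMSO libraries 1 to 5. KDM5-C70 2 and DMSO 3 were the widest at DNAJB9, and a single region crossed the start in all 8 libraries. In GRCh38.p14 its start lies 168 bp from that of THAP5, which runs the other way, so calls upstream of DNAJB9 are also calls at THAP5. HERPUD1 and SEL1L belong to ER-associated degradation, in which misfolded proteins are taken out of the ER; HERPUD1 encodes a membrane protein of this machinery and SEL1L the partner of the ubiquitin ligase HRD1. Around the HERPUD1 start at position 56965960 of chromosome 16, on the plus strand, called bases were 1999, 1708 and 1749 bp in KDM5-C70 libraries 1 to 3 and 1203, 818, 2305, 2808 and 2340 bp in DMSO libraries 1 to 5. The 3 KDM5-C70 values stood between the DMSO values of the sets: KDM5-C70 1 minus the mean of DMSO 1 and 2 was 988.5 bp, and KDM5-C70 2 and 3 minus DMSO 3, 4 and 5 was -756 bp on average. The pooled difference of -76.1 bp at HERPUD1 thus averages opposite differences. Around the SEL1L start at position 82000205 of chromosome 14, on the minus strand, called bases were 605, 1073 and 526 bp in KDM5-C70 libraries 1 to 3 and 750, 379, 1676, 1177 and 1585 bp in DMSO libraries 1 to 5. SEL1L calls lay almost wholly after the start, with 11 bp before it in KDM5-C70 1 and 0 in the other 7 libraries. In the set of 5 both KDM5-C70 values were below the 3 DMSO values, with a mean difference of -680 bp, and in the set of 3 KDM5-C70 1 lay between DMSO 1 and DMSO 2.

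**Figure D3:**
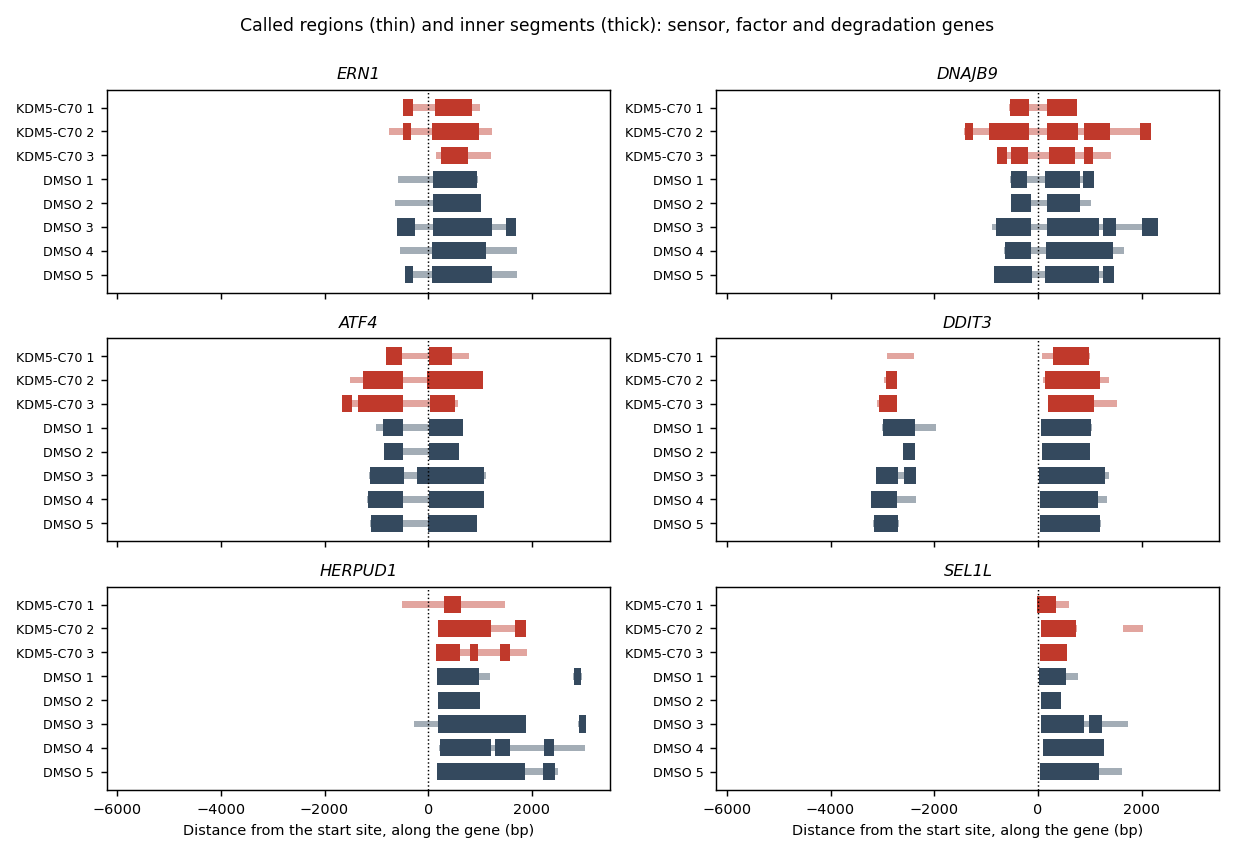
Called regions (light) and inner segments (dark) of ERN1, DNAJB9, ATF4, DDIT3, HERPUD1 and SEL1L by distance from the start site (bp, horizontal axis, positive into the gene), 1 line per library with KDM5-C70 above DMSO. DDIT3 has separate calls before and after its start in every library, and SEL1L has at most 11 called bp before its start.

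Counted within the sets, called bases at 5 of the 10 genes were lower in both KDM5-C70 libraries than in the 3 DMSO libraries of the set of 5 (HSP90B1, ERN1, HERPUD1, SEL1L and CALR), where 7.59% of all windows were. CALR was among them by the narrowest margin, with 2027 bp in KDM5-C70 2 and 2028 bp in DMSO 4, and a mean difference of -67.3 bp. Called bases in that set were higher at 2 genes (HSPA5 and PDIA4), where 39.9% of windows were. In the set of 3, KDM5-C70 1 was below both DMSO libraries at 3 genes (HSP90B1, ERN1 and DNAJB9), where 27.8% of windows were, and above both at 2 (HSPA5 and HERPUD1), where 33.4% were. HSP90B1 and ERN1 were lower without overlap in both sets, as were 2.74% of windows, and HSPA5 was higher in both, as were 15.3% of windows. Over the 10 genes the pooled difference was negative at 6 and positive at 4, with a median of -88.0 bp, while over the 13729 windows it was negative in 22.7%, with a median of 136 bp. Single libraries decided the sign at 4 genes: ATF4 and DNAJB9 turned negative without KDM5-C70 2 (-18.2 and -446 bp), CALR turned positive without KDM5-C70 1 (251 bp), and HERPUD1 turned positive without DMSO 3, 4 or 5 (26.4, 152 and 35.2 bp). The signs also depended on the width of the window. Within 2 kb of the start DDIT3, HERPUD1 and CALR turned positive (25.1, 297 and 102 bp). Within 1 kb HERPUD1 and CALR turned positive (155 and 43.4 bp) and ATF4 negative (-87.0 bp). The share over all windows is not given for these widths. On the log2 scale the median difference was -0.03 for the 10 genes and 0.14 over the 13739 windows of the fit, which are the 13729 and the 10. Regions at the 10 genes are thus in both parts of the fit. In that fit (limma, Benjamini-Hochberg adjusted) 0 windows passed an adjusted p of 0.05, 0.0% in either direction, and the smallest adjusted p was 0.637. Without adjustment, 230 windows had a p under 0.05, of which 120 were wider and 110 narrower with KDM5-C70. That split depended on the libraries: with a term for the set it was 1740 wider and 417 narrower, without KDM5-C70 1 it was 1708 wider and 89 narrower, and without KDM5-C70 3 it was 14 wider and 107 narrower.

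**Figure D4:**
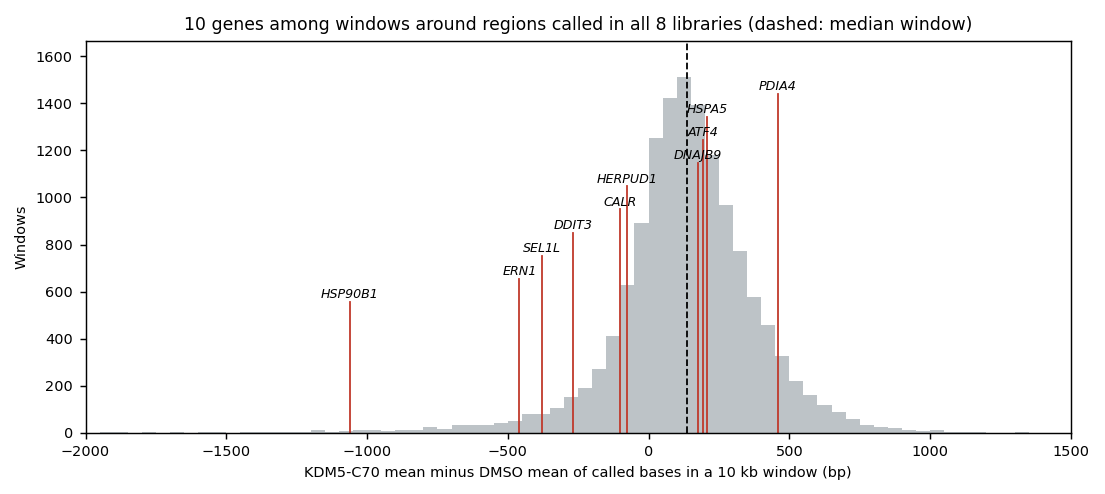
Difference in called bases (KDM5-C70 minus DMSO, bp, horizontal axis) over the 13729 windows called in all 8 libraries, shown as a histogram, with the 10 genes marked. HSP90B1 stands at -1062 bp, the 0.313th percentile, and PDIA4 at 458 bp, the 92.6th, while the median window is at 136 bp.

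The inner segments are the narrower blocks that MACS2 lists inside a called region. Over the 10 genes together they made up 56.6, 65.1 and 57.6% of called bases in KDM5-C70 libraries 1 to 3 and 66.0, 67.2, 76.3, 69.8 and 74.2% in DMSO libraries 1 to 5. All 3 KDM5-C70 libraries were below all 5 DMSO libraries, the nearest pair being 65.1 and 66.0%, and the mean difference was -10.9 percentage points (59.8 ± 4.64% with KDM5-C70, SD, n = 3, and 70.7 ± 4.45% with DMSO, SD, n = 5). The whole series showed a like difference: the median share over all windows was 66.4, 73.8 and 69.7% in KDM5-C70 libraries and 80.2, 77.2, 87.4, 83.7 and 85.4% in DMSO libraries. The like measure for the genes is the median of their 10 shares. It was 64.7, 63.8 and 54.9% in KDM5-C70 libraries 1 to 3. In DMSO libraries 1 to 5 it was 71.2, 70.1, 76.0, 75.2 and 74.7%. The mean difference of these medians was -12.3 points for the genes and -12.8 points for all windows. No single gene of the 10 had shares that did not overlap between the groups, where 12.4% of windows were lower and 0.197% higher in all KDM5-C70 libraries. The mean share was lower with KDM5-C70 at 9 of the 10 genes, with a median difference of -9.40 points, and lower in 84.6% of all windows, with a median of -10.9 points. Within the set of 5 the share was lower without overlap at 4 genes (HSPA5, ATF4, DNAJB9 and PDIA4), where 45.9% of windows were, and higher at 0, where 2.07% were. Within the set of 3 it was lower at 4 (DDIT3, ATF4, HERPUD1 and SEL1L), where 53.6% were, and higher at 3 (HSP90B1, ERN1 and PDIA4), where 15.5% were.

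HSP90B1 was the gene at which the mean inner share was higher with KDM5-C70, at 68.0, 97.4 and 38.5% in KDM5-C70 libraries 1 to 3 and 42.5, 33.8, 69.4, 75.4 and 52.6% in DMSO libraries 1 to 5. The mean difference of 13.2 points rested on KDM5-C70 2, without which it was -1.50 points. These values overlapped widely, and the called bases that divide them were fewer with KDM5-C70. Its inner bases themselves were 631, 1009 and 516 bp with KDM5-C70 and 917, 560, 1751, 1282 and 1463 bp with DMSO, overlapping through DMSO 1 and 2. HERPUD1 had the lowest inner share of any gene in any library, 15.9% in KDM5-C70 1. Its other shares were 72.5 and 47.5% in KDM5-C70 libraries 2 and 3 and 78.9, 100, 79.5, 52.8 and 82.5% in DMSO libraries 1 to 5. DDIT3 had 48.5, 84.1 and 72.1% in KDM5-C70 libraries 1 to 3 and 77.9, 100, 90.2, 74.9 and 98.4% in DMSO libraries 1 to 5, so 2 of the 3 KDM5-C70 values lay below all DMSO values. Inner bases at DDIT3 were 703, 1275 and 1236 bp with KDM5-C70 and 1581, 1154, 1916, 1621 and 1637 bp with DMSO, where DMSO 2 alone lay within the KDM5-C70 range. The mean difference in inner bases at DDIT3 was -510 bp. Of it, -306 bp lay upstream, in the piece near the MBD6 start, and -205 bp after the DDIT3 start.

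**Figure D5:**
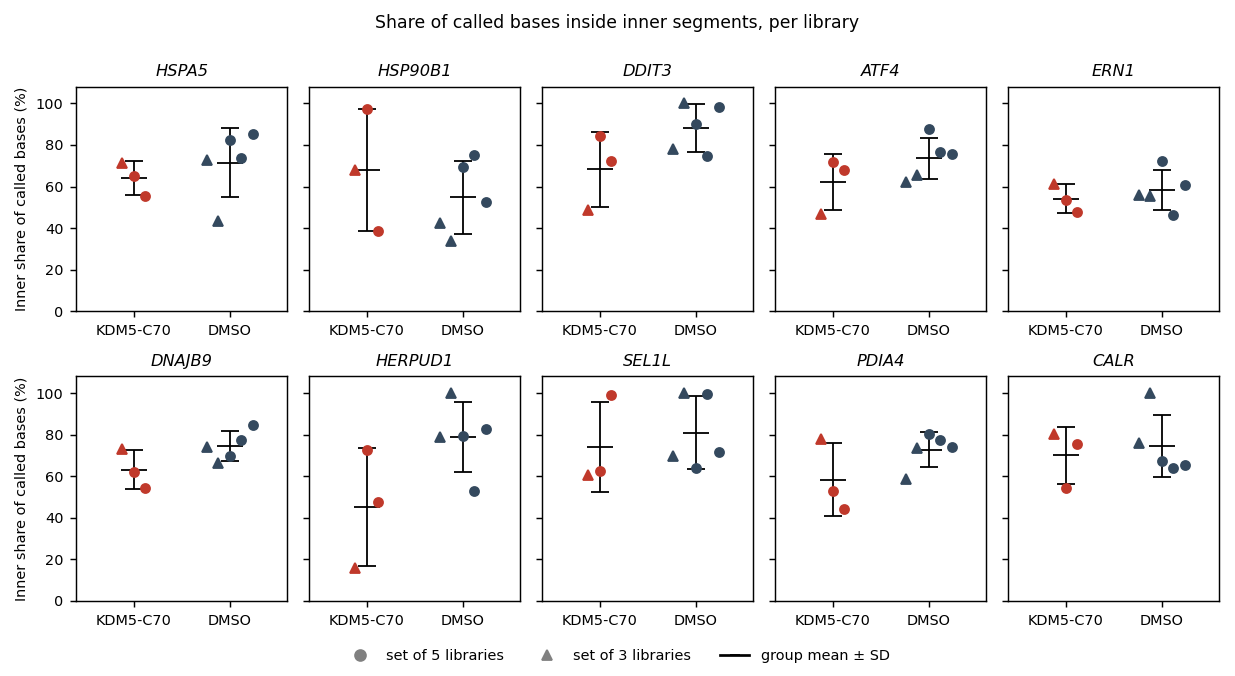
Inner segments as a share of called bases (percent, vertical axis) at each of the 10 genes, with 3 KDM5-C70 libraries left of 5 DMSO libraries; circles are the set of 5 libraries, triangles the set of 3, and black marks the mean ± SD. The groups overlap at every gene, and HERPUD1 holds the lowest value, 15.9% in KDM5-C70 1.

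The pooled mean of inner bases was lower with KDM5-C70 at all 10 genes, with a median difference of -253 bp, while over all windows it was lower in 63.2%, with a median of -48.5 bp. Within the set of 3 the difference was positive at HSPA5, ERN1 and PDIA4 (260, 26.5 and 34.0 bp) and negative at the other genes. No gene had inner bases that did not overlap between the groups, where 2.12% of windows were lower and 0.0219% higher in all KDM5-C70 libraries. In the set of 5, inner bases were lower in both KDM5-C70 libraries than in all DMSO libraries at 5 genes (HSP90B1, DDIT3, HERPUD1, SEL1L and PDIA4), where 30.5% of windows were, and higher at 0, where 10.4% were. They were lower in KDM5-C70 1 of the set of 3 at 6 genes (DDIT3, ATF4, DNAJB9, HERPUD1, SEL1L and CALR), where 48.0% of windows were, and higher at 0, where 12.7% were. DDIT3, HERPUD1 and SEL1L had fewer inner bases without overlap in both sets, as had 17.4% of windows, and 0 genes had more in both, against 1.87% of windows.

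The longest inner segment, a measure added after the values were seen, was likewise shorter on average at all 10 genes, with a median difference of -299 bp, and in 71.7% of all windows, with a median of -82.7 bp. At HSPA5 it was 618, 681 and 635 bp in KDM5-C70 libraries 1 to 3 and 635, 616, 1237, 1074 and 1352 bp in DMSO libraries 1 to 5. The segment after the HSPA5 start, in the set of 5, ran to 1098 bp or farther in the 3 DMSO libraries, while in KDM5-C70 2 and 3 it ended at 689 and 705 bp and a further, shorter segment followed. At HERPUD1 the longest segment was 317, 1018 and 465 bp with KDM5-C70 and 800, 818, 1687, 998 and 1685 bp with DMSO. In the set of 5 the longest segment was shorter in both KDM5-C70 libraries than in all DMSO libraries at 7 of the 10 genes, where 36.2% of windows were, and in the set of 3 at 7 as well, where 49.7% were. It was longer without overlap at 0 genes in either set, where 7.67% of windows in the set of 5 and 14.9% in the set of 3 were. Pooled, 0 of the 10 genes had groups that did not overlap, where 4.2% of windows were shorter and 0.051% longer in all KDM5-C70 libraries.

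Start bases were called in 17 of 30 pairs of gene and library with KDM5-C70 and in 33 of 50 with DMSO. They lay in an inner segment in 2 of 30 pairs with KDM5-C70 and in 3 of 50 with DMSO. HSP90B1 gave 4 of the called pairs with DMSO and 0 of those with KDM5-C70. Pairs that share a gene or a library are not independent. No share over other start sites was measured, so nothing is read from these counts. HSPA5, ATF4 and DNAJB9 had the start called in all 8 libraries, and DDIT3 in none. The authors' −log10 q-value of the region nearest the start was at least 5 for 2, 2 and 1 of the 10 genes in KDM5-C70 libraries 1 to 3 and for 3, 6, 9, 5 and 6 in DMSO libraries 1 to 5. Of the regions of the whole lists, 9.65 to 21.9% passed that limit with KDM5-C70 and 41.7 to 64.3% with DMSO. The authors' fold enrichment of these regions lay between 1.68 and 4.73.

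The 10 genes differed in how closely they followed the width of their library. Across the 8 libraries, Pearson's r was taken on the log2 scale between the called bases of a gene and the median over all windows. It was 0.98 for HSPA5, 0.98 for PDIA4, 0.97 for ATF4, 0.92 for CALR and 0.85 for DNAJB9. It was 0.66 for HERPUD1, 0.63 for SEL1L, 0.53 for DDIT3, 0.19 for ERN1 and 0.11 for HSP90B1. These values describe 8 libraries that share a caller and fall into the 2 sets. The 3 merged regions whose called bases were most like those of HSP90B1 over the 8 libraries were chr22:20426908-20428109 (Pearson's r = 0.95), chr20:51588485-51590202 (r = 0.93) and chr11:20690784-20691949 (r = 0.93) on GRCh37. At the first of them called bases were 728, 893 and 912 bp in KDM5-C70 libraries 1 to 3 and 1140, 1030, 1197, 932 and 1184 bp in DMSO libraries 1 to 5. These regions were picked for the highest r with HSP90B1. Their likeness and the order of their groups follow from that choice, and nothing is read from them.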

How the data were processed

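H3K4me3 ChIP-seq regions were analysed for 3 KDM5-C70 and 5 DMSO libraries of MM1S cells. The submitters' processing notes name MACS2 2.1.0, Bowtie 1.1.2, HOMER 4.8 and Trim Galore 0.40, along with GRCh37 as build. On settings and any input library nothing is given in the sources used here. Each library has its own list as deposited by the authors; calling was thus per library, without pooling. Positions in the deposited lists are whole base pairs, given here as counted from 1, and each deposited region also lists inner blocks. Blocks of 1 bp, which mark ends, were left out. The deposited −log10 q-value and fold enrichment (a ratio) were made by the authors and served here to describe or filter regions inside 1 list. No read counts were used, so the precision of each library is unknown.

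Lists were merged where they overlapped by at least 1 bp on chromosomes 1 to 22 and X. Called bases, inner bases and their share were measured within 5 kb of each start site, and likewise around the midpoints of the 13729 merged regions called in all 8 libraries. limma 3.58.1 in R 4.3.3 was fitted to log2 called bases over all 13739 windows, with a variance trend, 2-sided, Benjamini-Hochberg adjusted at 0.05. Intervals were handled in Python 3.11.15 with pandas 2.3.3 and numpy 2.4.6, clustering with scipy 1.17.1 and plots with matplotlib 3.10.9. Interval measures and the limma step were tested on simulated data. Promoters and neighbouring starts came from RefSeq tables of GRCh38.p14; where a gene had several entries (3 of the 10 genes) the first was used. No gene annotation of GRCh37 was used, so other genes of the pathway and plasma cell markers were not analysed here. The genes, gene lists and tests were chosen with earlier results of these data known. All 10 genes are named; full values are given for the genes the results turn on. The regions most like HSP90B1 are the 3 with the highest Pearson's r of log2 called bases over the 8 libraries.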

Additional observations from a re-analysis of the deposited data

How the results depend on the processing

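Depth is unknown and a list holds only what passed the caller, so values are limited by how each library was called, and the 2 sets of libraries differ in list length. The difference in called bases summed over the 10 genes (-1309 bp, KDM5-C70 minus DMSO) lay between -3028 and 853 bp when each library was left out in turn, and was positive without KDM5-C70 1. With lists limited to a −log10 q-value of 5 or more it was -7847 bp, and 0 of the 10 genes were then called in every library and 0 had groups that did not overlap. Of the 10 genes, 1 had called bases that did not overlap between the groups. This count was 5 within the set of 3 libraries, 7 within the set of 5, 0 for inner bases, and between 1 and 3 with each library left out. Of all windows, 0.896% were higher and 0.459% lower pooled. Within the set of 3 these shares were 33.4 and 27.8%, and within the set of 5 they were 39.9 and 7.59%. For inner bases they were 0.0219 and 2.12%. Without KDM5-C70 1, where the count was 3, they were 39.7 and 0.94%. The difference in inner share (-10.9 points) lay between -13.6 and -9.34 points with each library left out and was -6.12 points within 1 kb of the start. The limma count of 0 windows was 0 without any 1 library, 25 with a term for the set and centring (4 wider and 21 narrower with KDM5-C70), and 2 with these stricter lists, where 18 windows could be tested. The cause of these changes was not tested, apart from the fewer windows or libraries that an alternative leaves by construction.

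With each list limited to its 15323 widest regions, 9 of the 10 genes were called in every library, and the difference at SEL1L was -912 bp in place of -379 bp. HSP90B1 kept fewer called bases with KDM5-C70 in the 15 alternatives run for it, with differences between -1202 and -890.0 bp. The -1202 bp came from the stricter lists, where its nearest region passed in 0 of 3 KDM5-C70 and 3 of 5 DMSO libraries. Few KDM5-C70 regions of any kind passed that limit (9.65 to 21.9%, against 41.7 to 64.3% with DMSO), so it cannot show stability. The other alternatives lay between -1188 and -890.0 bp. Of the differences in called bases at the 10 genes, 10 kept their sign within the set of 5 libraries and 6 within the set of 3. With windows of 2 kb on each side of the start 7 kept it, and with 1 kb also 7. Replicate numbers are shared by the groups, but nothing in the labels pairs them, and region names inside the lists of DMSO 3, 4 and 5 carry the numbers 4, 5 and 6, so the third pair is in doubt. By the labels' numbers, deviations of same-numbered libraries correlated at 0.21, -0.27 and 0.39, and KDM5-C70 1 correlated best with DMSO 2. With the replicate number as a block, limma called 10 windows (1 wider and 9 narrower with KDM5-C70), the summed difference was 340 bp and the difference in share -10.0 points.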
